A study of Mus musculus with 30 samples.

Results

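The interferon-gamma-induced GTPases were taken as a fixed list of 10 gene symbols, and their levels were followed in immune cells from 10 mouse tumour lines. The list holds 6 guanylate-binding proteins (Gbp2, Gbp2b, Gbp3, Gbp4, Gbp5 and Gbp7) and 4 immunity-related GTPases (Igtp, Irgm1, Irgm2 and Iigp1), which makes 10 of the 55291 genes in the data. Ifng, the gene of interferon gamma itself, was read beside them. All 10 members were found by symbol, and all 10 passed the filter on low values, at 1 TPM (a level scaled for transcript length and for the total of its library) or more in at least 3 libraries, which kept 17944 genes. The rule uses no measured value, but the list was drawn up with earlier results of these data known.

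The data were 30 RNA-seq libraries, 3 for each line, whose labels give immune cells that are CD45+ and tumour-infiltrating, from subcutaneous tumours taken at a length of 10 mm. The colon carcinomas were MC38OVA, which carries ovalbumin, with its parent MC38, and CT26NYESO1, which carries human NY-ESO-1, with its parent CT26. EMT6 is a mammary carcinoma, Renca a renal carcinoma, CMS5a a fibrosarcoma, LL2 the Lewis lung carcinoma, and B16F10 and B16F1 are sublines of 1 melanoma. The series asks which kinds of tumour suit treatment with OK-432 (killed streptococci injected locally), and the labels mention mice with and without it for 24 hours and mice of both BALB/cJ and C57BL/6J strains, but tie neither to a library, so neither was used as a group. Ages, pooling of animals and whether replicates came from separate mice are not given in the sources used here.

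Guanylate-binding proteins (GBPs) are large GTPases of the dynamin superfamily that assemble on the membranes of pathogen-containing vacuoles and of bacteria and help to expose their contents to inflammasomes. Immunity-related GTPases (IRGs) are smaller. Igtp, Irgm1 and Irgm2 belong to the regulatory kind, which sits on the cell's own membranes and holds the others inactive there, and Iigp1 (also called Irga6) is an effector that loads onto vacuoles of parasites such as Toxoplasma. Interferon gamma, made mainly by T and NK cells, signals through its receptor and Jak1 and Jak2, acts on promoters through GAS elements and induces Irf1, and IRF factors bind ISRE elements. Macrophages are among the cells in which these GTPases are strongly induced.

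In the genome the members fall into clusters and single places (GENCODE M21, mm10). On chromosome 3, Gbp5, Gbp7, Gbp3, Gbp2b and Gbp2 follow each other on the plus strand in 144031 bases, with Gbp5 at chr3:142493978-142522344 and Gbp2 at chr3:142620602-142638008. Gbp4 lies in a second GBP cluster at chr5:105115767-105139586 on the minus strand, Irgm1 at chr11:48861968-48871683 on the minus strand and Ifng at chr10:118441046-118445892. Igtp (chr11:58199556-58207591) and Irgm2 (chr11:58199618-58222782) are annotated on the same strand with an overlap of 7974 bases, and Gbp4 overlaps Gbp8 by 23774 bases and Gbp9 by 23773 bases on its own strand. Of the 50-base runs in the annotated transcripts of each gene, 11.8% of Igtp, 12.7% of Gbp7, 7.77% of Irgm2 and 7.70% of Gbp4 also occur in another gene, against 0.31% to 3.75% for the other 6 members. The levels of those 4 genes are therefore less certain than the rest, since the deposited values do not show how shared reads were assigned.

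The promoter windows of 6 members are shown. Gbp2, Gbp2b, Gbp5 and Irgm1 have contrasting patterns in the values that follow, and Igtp and Irgm2 have patterns much alike (r = 0.98 over the 30 libraries). Each runs from 250 bases before to 50 bases after the RefSeq start (GRCm38.p6), 5′ to 3′ along the gene, and capitals mark matches on either strand to an ISRE core (GAAANNGAAA) or to a GAS element (TTCNNNGAA).
Gbp2: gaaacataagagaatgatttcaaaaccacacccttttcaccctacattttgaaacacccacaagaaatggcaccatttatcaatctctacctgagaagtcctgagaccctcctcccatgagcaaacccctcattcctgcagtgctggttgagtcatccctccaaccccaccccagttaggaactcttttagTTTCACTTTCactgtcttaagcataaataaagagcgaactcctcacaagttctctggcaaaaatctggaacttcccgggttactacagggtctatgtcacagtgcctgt
Gbp2b: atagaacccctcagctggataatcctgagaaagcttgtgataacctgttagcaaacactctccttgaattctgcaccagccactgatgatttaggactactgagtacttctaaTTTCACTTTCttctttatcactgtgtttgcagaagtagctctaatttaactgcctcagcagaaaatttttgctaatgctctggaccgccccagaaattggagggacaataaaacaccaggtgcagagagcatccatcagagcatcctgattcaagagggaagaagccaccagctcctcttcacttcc
Gbp5: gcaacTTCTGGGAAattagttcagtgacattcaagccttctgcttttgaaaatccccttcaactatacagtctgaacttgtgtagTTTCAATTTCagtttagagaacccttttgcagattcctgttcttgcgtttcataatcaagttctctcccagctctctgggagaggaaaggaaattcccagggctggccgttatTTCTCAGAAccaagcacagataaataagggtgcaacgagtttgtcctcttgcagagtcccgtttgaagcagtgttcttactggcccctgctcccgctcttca
Irgm1: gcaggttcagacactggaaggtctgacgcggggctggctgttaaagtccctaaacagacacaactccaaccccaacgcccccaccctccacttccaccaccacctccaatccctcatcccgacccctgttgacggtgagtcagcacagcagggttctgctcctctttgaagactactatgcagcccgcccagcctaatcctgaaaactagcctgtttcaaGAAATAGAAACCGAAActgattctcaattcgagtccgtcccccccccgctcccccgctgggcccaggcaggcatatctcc
Igtp: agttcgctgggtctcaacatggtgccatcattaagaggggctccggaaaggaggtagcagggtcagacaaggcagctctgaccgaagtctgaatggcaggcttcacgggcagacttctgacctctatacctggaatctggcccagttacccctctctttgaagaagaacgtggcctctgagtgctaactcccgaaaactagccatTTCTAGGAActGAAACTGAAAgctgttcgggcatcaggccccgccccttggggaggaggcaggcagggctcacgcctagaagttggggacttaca
Irgm2: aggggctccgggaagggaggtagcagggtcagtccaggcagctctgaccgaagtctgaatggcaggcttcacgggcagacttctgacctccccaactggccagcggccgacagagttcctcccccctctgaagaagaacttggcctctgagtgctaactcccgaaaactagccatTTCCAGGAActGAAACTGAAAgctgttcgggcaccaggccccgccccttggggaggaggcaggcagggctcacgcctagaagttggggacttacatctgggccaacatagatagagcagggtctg
The windows are chr3:142620413-142620712 for Gbp2, chr3:142594597-142594896 for Gbp2b and chr3:142496684-142496983 for Gbp5, all plus strand. They are chr11:48871371-48871670 on the minus strand for Irgm1, and chr11:58199306-58199605 and chr11:58214727-58215026 on the plus strand for Igtp and Irgm2.

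An ISRE core was present in the windows of 8 of the 8 members listed in the RefSeq promoter table, which also include Gbp7 and Gbp3, against 3.99% of 27025 genes with a window of the same length. Gbp2 and Gbp2b hold the same 10 letters, TTTCACTTTC, at positions -59 to -50 in Gbp2 and -137 to -128 in Gbp2b, counted from the start. Irgm1 has overlapping matches at -30 to -21 and -24 to -15, and Igtp and Irgm2 share GAAACTGAAA at -34 to -25 and -64 to -55. A GAS match was present in 4 of 8 members, Gbp5, Gbp7, Igtp and Irgm2, against 9.55% of genes, and in Igtp and Irgm2 it lies just before the ISRE core. The Igtp and Irgm2 windows were identical at 92.1% of 265 aligned bases, so they are not independent examples. These matches describe letters in a window and do not show binding.

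The labelled cell type was checked first. All 10 leukocyte markers were above 0 in all 30 libraries, with summed levels of 1176 to 2628 TPM in MC38OVA and 141 to 406 TPM in B16F1 as the extremes among lines. Melanocyte genes (7 markers) summed to 9482 to 13669 TPM in B16F10 and 1473 to 7131 TPM in B16F1, against at most 1.31 TPM in any library of the other lines. Other markers of non-leukocytes were high elsewhere: 6 epithelial markers summed to 1468 to 2186 TPM in Renca, 622 to 712 TPM in EMT6 and 177 to 321 TPM in LL2, against at most 15.5 TPM in the other lines. Fibroblast markers (6) summed to 4358 to 5603 TPM in CMS5a and to 4.08 to 13.2 TPM in B16F10, with every other line between, and 5 erythroid markers ran from 223 TPM in a B16F1 library to 77475 TPM in B16F10 replicate 2. The sum of 7 NK cell markers was 393 to 757 TPM in MC38OVA and 6.60 to 9.50 TPM in Renca, and Ncr1 was at 0 in 1 library each of B16F10 and B16F1. In bulk RNA, fewer cells of a type and less RNA per cell cannot be told apart, and tumour cells themselves can make these GTPases. In 7 libraries the median log2 difference of the members from the other libraries of their line was over 1 in size: -2.36 in CT26 replicate 2, 1.70 in CT26 replicate 3, -1.63 in EMT6 replicate 1, 1.07 in EMT6 replicate 3, 1.06 in LL2 replicate 2, -1.19 in B16F10 replicate 1 and 1.85 in B16F10 replicate 3. Counts against the other 9 lines or between related lines that move without such a library are given with and without it.

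All 10 GTPases differed between the lines. In the F test over the 10 line means, 10 of 10 were called (limma, adjusted p from 1.35e-16 for Gbp2b to 0.000179 for Irgm1, with line means at least 1 apart on the log2 scale), beside 85.5% of all genes tested, so that being called here is not particular to them. Over the 45 pairs of lines, 253 of 450 member-by-pair comparisons were called, against 24.9% of comparisons over all genes. Gbp2b was called in 34 of 45 pairs, the most, and Irgm1 in 17, the fewest. Called means here and throughout a Benjamini-Hochberg adjusted p under 0.05 and a difference of at least 1 on the log2(TPM + 1) scale, which understates changes at low levels.

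**Figure D1:**
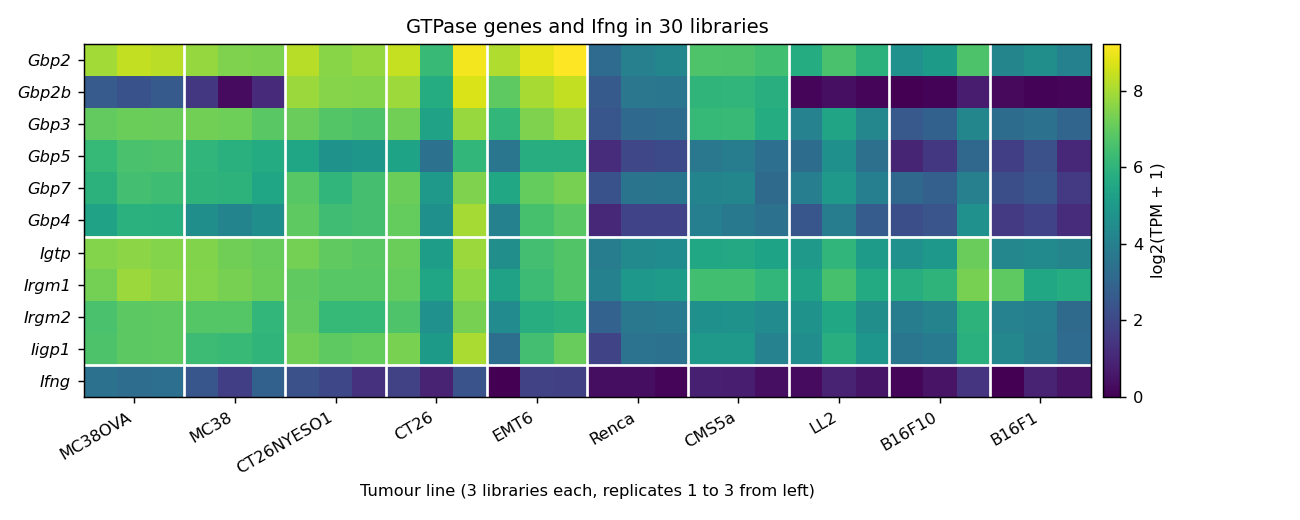
Levels of the 10 GTPases and Ifng (rows) in the 30 libraries (columns, by line), with colour giving log2(TPM + 1). The MC38OVA, MC38 and CT26NYESO1 columns and most of CT26 are high in the members other than Gbp2b. The EMT6 columns are higher in Gbp2, Gbp2b, Gbp3 and Gbp7 than in the IRG rows, while by line mean Gbp5 lies below Igtp, Irgm1 and Irgm2 there. Renca is low throughout. Among the members Gbp2b alone is low in MC38OVA and MC38, and near 0 in LL2, B16F10 and B16F1.

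The most abundant member in 7 of the 10 lines was Gbp2, a GBP that coats Toxoplasma vacuoles. It had 278, 466 and 596 TPM in EMT6, 245, 329 and 307 TPM in MC38OVA and 337, 74.3 and 528 TPM in CT26, and at the other end 17.1, 22.3 and 15.8 TPM in B16F1 and 8.31, 15.3 and 17.7 TPM in Renca. The 3 EMT6 libraries were all above the 3 of Renca and B16F1, and CT26 spanned most of the range by itself, with its replicate 2 low. The line means ran 32.4-fold, with 447 ± 160.3 TPM in EMT6 and 13.8 ± 4.87 TPM in Renca (SD, n = 3 each). In the order of mean log2 levels, EMT6, MC38OVA, CT26, CT26NYESO1, MC38, CMS5a, LL2, B16F10, B16F1, Renca, no 2 neighbours differed past the threshold.

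Gbp5, known for promoting the NLRP3 inflammasome, had another order. MC38OVA libraries held 71.5, 93.9 and 100.2 TPM and MC38 libraries 65.7, 56.1 and 49.5 TPM, while EMT6, first for Gbp2, had 11.2, 52.1 and 52.6 TPM. B16F10 had 0.936, 1.84 and 7.70 TPM and B16F1 2.30, 3.83 and 1.06 TPM. All 3 MC38OVA libraries lay above each of the other 27, which ranged from 0.936 to 68.1 TPM with a median of 11.2 TPM. Line means ran 37.0-fold, and among neighbours in the order, CMS5a exceeded B16F10 by 1.79 ± 0.57 (SE, log2; limma, adjusted p = 0.00884).

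Gbp3 and Gbp7, neighbours of Gbp5 on chromosome 3, spanned 22.7-fold and 34.0-fold between line means. Gbp3 averaged 159 ± 84.4 TPM in EMT6 and 6.995 ± 2.13 TPM in Renca, and Gbp7, which takes part in assembling the phagocyte oxidase, averaged 115 ± 75.3 TPM in CT26 and 3.37 ± 1.32 TPM in B16F1 (SD, n = 3 each). For Gbp3 the 6 lines from EMT6 down to CMS5a formed a high group. It was closed by a called gap, CMS5a above LL2 by 1.46 (limma, adjusted p = 0.0152). The next step, LL2 above B16F10 by 1.35, was called too (limma, adjusted p = 0.0183), with overlapping libraries. Gbp4, from the chromosome 5 cluster, spanned 69.1-fold, with 132, 23.6 and 249 TPM in CT26, 122, 83.0 and 90.2 TPM in CT26NYESO1 and 1.95, 2.66 and 1.24 TPM in B16F1. CT26 replicate 2 was the lowest of its line in all 10 members, and its Gbp4 level was close to the highest MC38 library (23.2 TPM).

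Gbp2b, formerly called Gbp1, parted from the other members. It had 226, 186 and 181 TPM in CT26NYESO1, 234, 50.7 and 417 TPM in CT26, 121, 259.9 and 332 TPM in EMT6, 64.7, 65.9 and 55.7 TPM in CMS5a and 5.17, 11.7 and 11.3 TPM in Renca. In MC38OVA, where every other member was high, it had 5.29, 4.04 and 5.16 TPM, and in MC38 1.81, 0.213 and 1.18 TPM. LL2 held 0.0950, 0.303 and 0.128 TPM, B16F10 0, 0.0718 and 0.633 TPM and B16F1 0.164, 0.0526 and 0.111 TPM. The 5 lines with the higher levels (CT26NYESO1, CT26, EMT6, Renca, CMS5a) are those known as derived from BALB/c mice and the 5 others are from C57BL/6 mice. Inbred strains are known to differ in whether interferon induces this gene.

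Against Gbp2 of the same library, which shares a neighbouring locus and an ISRE core of the same letters, Gbp2b stood at 43.4% to 96.6% in the 15 libraries of BALB/c-derived lines (median 66.1%) and at 0% to 2.16% in the 15 of C57BL/6-derived lines (median 0.640%). The 2 sets of ratios did not overlap, whereas those of Gbp3 to Gbp2 did, at 24.5% to 74.96% in the first set of lines and 18.1% to 84.7% in the second. In TPM the sets met at their edges, with 5.17 TPM in Renca replicate 1 and 5.29 TPM in MC38OVA replicate 1. Strain of origin and tumour line cannot be told apart here, the host of each library is not given, and no test was made on this split, which was chosen after the values were seen.

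**Figure D2:**
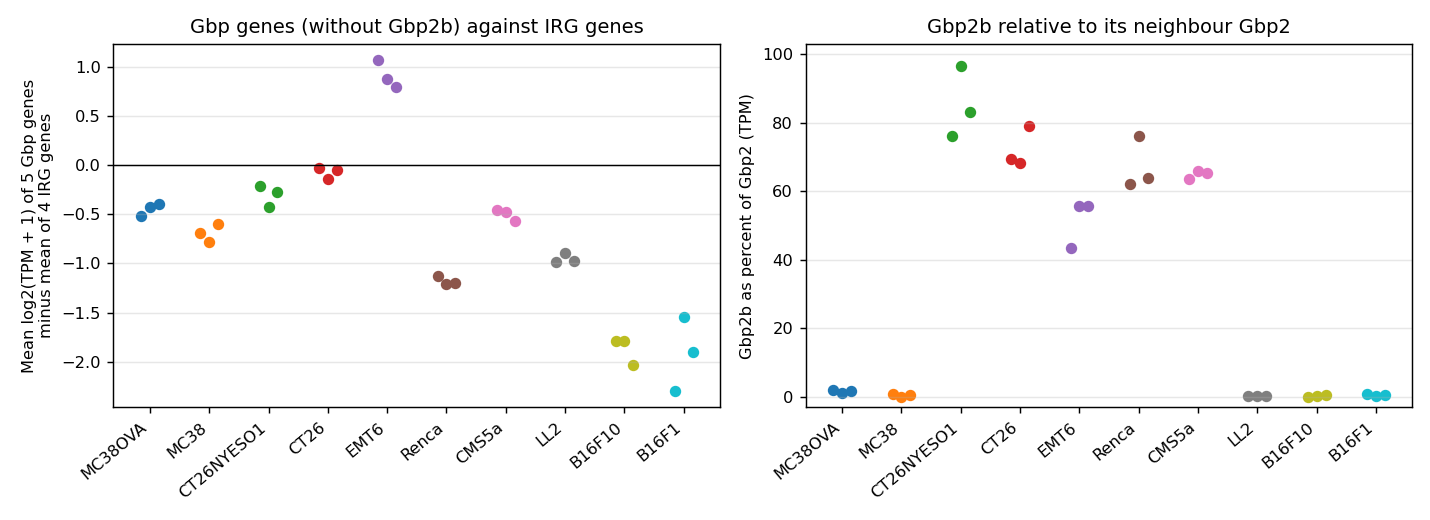
Left, mean log2(TPM + 1) of 5 GBPs (without Gbp2b) minus that of the 4 IRGs, 1 point per library, by line; right, Gbp2b TPM as a percentage of Gbp2 TPM, 1 point per library. The 3 EMT6 points are the only ones above 0 on the left, and on the right the CT26NYESO1, CT26, EMT6, Renca and CMS5a points lie at 43.4% to 96.6% and all others at or below 2.16%.

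Among the IRGs, the regulators Igtp, Irgm1 and Irgm2 had the narrowest ranges of the members, 10.2-fold, 7.42-fold and 10.8-fold between line means, each with MC38OVA highest and Renca lowest. Igtp had 180.0, 194 and 184 TPM in MC38OVA, 22.4, 86.4 and 105 TPM in EMT6, 13.5, 19.8 and 21.5 TPM in Renca and 18.2, 20.2 and 17.1 TPM in B16F1. Its order over the 10 lines was the same as that of Ifng, and none of its 9 neighbouring steps was called. Irgm1, whose loss in mice impairs resistance to mycobacteria and disturbs blood stem cells, had 15.6, 29.4 and 32.7 TPM in Renca, below each of the other 27 libraries, which lay between 38.7 and 227 TPM. In the B16 sublines, where the GBPs were low, it had 53.2, 63.6 and 162 TPM in B16F10 and 121, 45.3 and 51.1 TPM in B16F1, with 1 library of each well above the others.

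Iigp1, the effector IRG, lies at chr18:60376027-60392634 on the plus strand and had a wider range than the regulators, 20.2-fold between line means. It averaged 155 ± 119 TPM in CT26, 134 ± 12.8 TPM in CT26NYESO1, 113 ± 12.6 TPM in MC38OVA and 7.68 ± 4.33 TPM in Renca (SD, n = 3 each). In EMT6 it had 9.18, 87.2 and 133 TPM, of which the first library was lower than any library outside Renca and B16F1. No neighbouring step in its order was called.

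**Figure D3:**
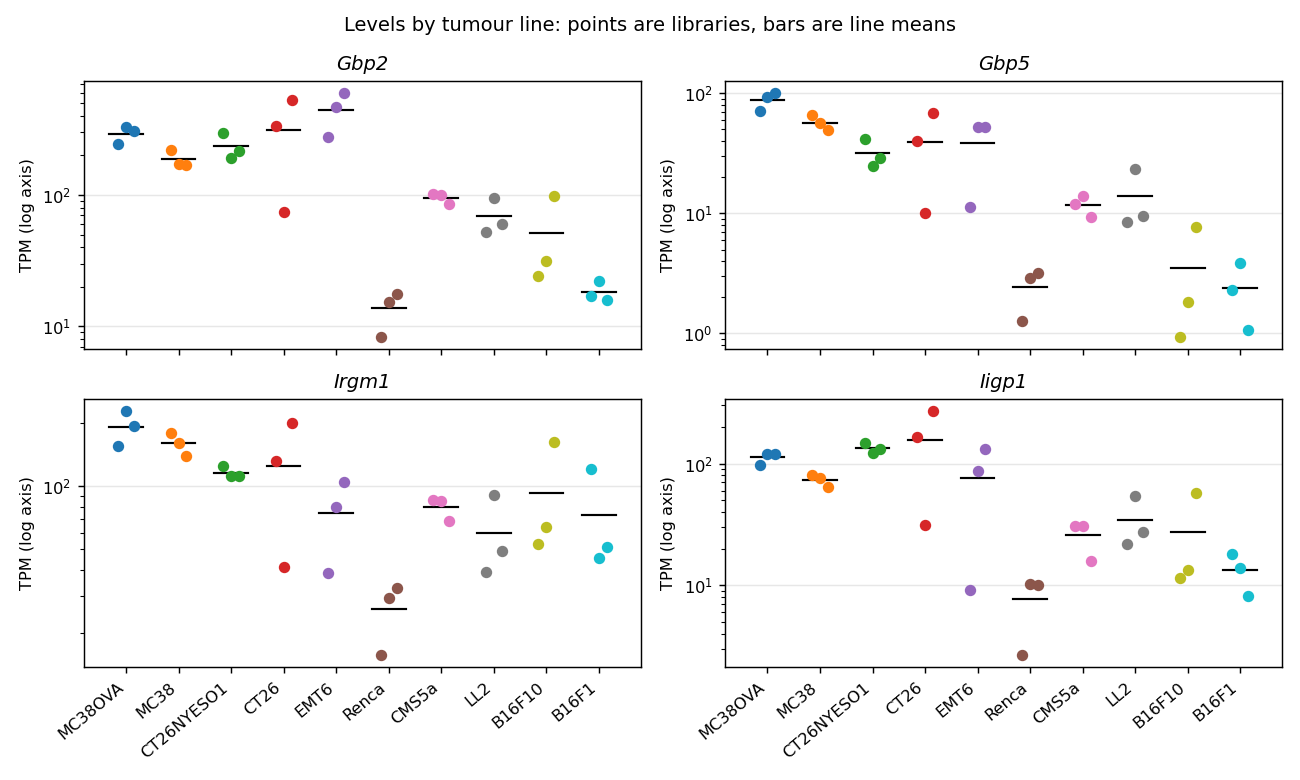
TPM (log axis) of Gbp2, Gbp5, Irgm1 and Iigp1 by line, with a point for each library and a bar at each line mean. EMT6 leads for Gbp2 (447 TPM), MC38OVA for Gbp5 (88.6 TPM) and Irgm1 (192 TPM), and CT26 for Iigp1 (155 TPM), and Renca is lowest for Gbp2, Irgm1 and Iigp1.

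MC38OVA was high in 9 of the 10 GTPases when set against the mean of the other 9 lines, and Gbp2b was low. Gbp5 was higher by 2.74 ± 0.43 (SE, log2; limma, adjusted p = 7.16e-06), Igtp by 1.78 ± 0.41 (SE, log2; limma, adjusted p = 0.000967) and Irgm1 by 1.32 ± 0.35 (SE, log2; limma, adjusted p = 0.00304). The background in this comparison was 10.2% of genes called higher and 3.59% called lower. Gbp2b, the exception, differed by -1.21 ± 0.35 (SE, log2; limma, adjusted p = 0.0062), a call that was lost with a pseudocount of 0.1 (-0.54, limma, adjusted p = 0.411). Ifng was at 10.00, 8.92 and 9.37 TPM in MC38OVA, above each of the other 27 libraries (0 to 6.29 TPM, median 0.823 TPM), and was higher by 2.30 ± 0.30 (SE, log2; limma, adjusted p = 5.54e-07).

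MC38 showed the same directions with fewer calls. Of the 10 members 7 were called higher (background 8.24%), among them Gbp5 by 2.06 ± 0.43 (SE, log2; limma, adjusted p = 0.000312) and Igtp by 1.47 ± 0.41 (SE, log2; limma, adjusted p = 0.00542), and Gbp2b was called lower at -2.96 ± 0.35 (SE, log2; limma, adjusted p = 1.00e-07) (background 4.06%). Gbp4, at 0.28 ± 0.50, and Iigp1, at 0.96 ± 0.54, were not called. There were 5 members called without MC38 replicate 1, 5 without replicate 2 and 5 under median-ratio scaling, which moves the median of all genes by -0.13 in this comparison. With the leukocyte marker level as a covariate 5 were called too.

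Other genes of the interferon gamma pathway were also high in both lines. Of 18 other interferon-induced GTPases tested, 14 were called higher in MC38OVA and 13 in MC38, with 0 lower in either. Their median differences were 1.84 in MC38OVA and 1.25 in MC38, beside 0.05 and 0.08 for all genes. In MC38OVA the largest were Gm5431 (2.84), Gm12250 (2.63), Gvin1 (2.44), 9930111J21Rik1 (2.29) and Gbp8 (2.21), of which Gvin1 encodes a very large interferon-induced GTPase. Of 12 targets outside the GTPases 11 were called higher in MC38OVA and 9 in MC38, led in MC38OVA by the chemokine gene Cxcl10 (4.08) and the tryptophan-degrading enzyme gene Ido1 (3.42). A type I interferon signature of 12 genes was called higher throughout, 12 of 12 in each line, with Mx1 at 3.70 and Rsad2 at 3.66 in MC38OVA. By line mean NK and T cell markers were highest in MC38OVA too, but its libraries overlapped those of other lines. The 7 T cell markers summed to 99.5 to 135 TPM in MC38OVA, 66.9 to 99.7 TPM in MC38, 61.9 to 96.2 TPM in CT26NYESO1 and 2.90 to 28.9 TPM in EMT6. The 7 NK markers summed to 393 to 757 TPM in MC38OVA, 338 to 532 TPM in MC38 and 126 to 475 TPM in CT26. Leukocyte markers summed to 1176 to 2628 TPM in MC38OVA. With the leukocyte marker level as a covariate none of the 9 members called higher in MC38OVA kept its call, with Gbp5 at 1.08 (limma, adjusted p = 0.215) and Gbp4 at -0.28, and Gbp2b, which is lower, was the 1 member called.

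In CT26NYESO1 and CT26 the GBPs and Iigp1 were high, and Irgm1 was called in neither. In CT26NYESO1 9 of 10 members were called higher (background 6.84%, and 5.71% lower), with Gbp2b higher by 4.45 ± 0.35 (SE, log2; limma, adjusted p = 5.10e-11), Gbp4 by 2.67 ± 0.50 (SE, log2; limma, adjusted p = 8.69e-05) and Iigp1 by 1.92 ± 0.54 (SE, log2; limma, adjusted p = 0.00529), and Irgm1 was the member not called (0.53 ± 0.35). In CT26 8 of 10 were called higher (background 8.25%, and 4.91% lower), with Gbp4 higher by 2.60 ± 0.50 (SE, log2; limma, adjusted p = 0.000116), and Igtp (0.86 ± 0.41) and Irgm1 (0.35 ± 0.35) not called. Without CT26 replicate 2 all 10 were called, with Igtp at 1.65 and Irgm1 at 1.001, 5 were without replicate 1, and 3 without replicate 3. NK markers in CT26 replicate 2 were 1.26 lower on the log2 scale than in its other libraries and leukocyte markers 0.54 lower, and their part in the low level of that library was not tested.

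The other parts of the pathway were called unevenly in the CT26 lines. Of the other GTPases 12 of 18 were called higher in CT26NYESO1 and 13 of 18 in CT26, where F830016B08Rik (2.89), Gm4841 (2.04) and Gbp10 (1.85) led. Of the 12 targets 1 was called higher in each line and 1 lower in CT26NYESO1 (Nos2, -1.29), and of the type I signature 0 were called higher and 1 lower in each, Rsad2 at -1.57 in CT26NYESO1 and -1.13 in CT26. Ifng was called in neither, at 0.62 ± 0.30 in CT26NYESO1 and 0.41 ± 0.30 in CT26.

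In EMT6 the 6 listed GBPs were high and the 4 listed IRGs were not called. All 6 of these GBPs were called higher (background 10.2%, and 4.7% lower), Gbp2b by 4.61 ± 0.35 (SE, log2; limma, adjusted p = 1.57e-11), Gbp2 by 2.33 ± 0.36 (SE, log2; limma, adjusted p = 6.24e-06) and Gbp7 by 1.98 ± 0.38 (SE, log2; limma, adjusted p = 0.000124). None of the 4 IRGs was, at -0.29 ± 0.35 for Irgm1, -0.04 ± 0.41 for Igtp, 0.10 ± 0.39 for Irgm2 and 0.31 ± 0.54 for Iigp1. Taken within each library, the mean log2 level of 5 GBPs (without Gbp2b) minus that of the IRGs was 1.06, 0.87 and 0.80 in EMT6, and between -2.29 and -0.03 in the other 27 libraries. This balance held in the 3 EMT6 libraries although replicate 1 was far below the others in level.

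Set directly against MC38OVA, EMT6 had lower regulatory IRGs, beside 4 GBPs whose difference was not called. MC38OVA exceeded EMT6 in Igtp by 1.64 ± 0.56, Irgm1 by 1.45 ± 0.47, Irgm2 by 1.44 ± 0.52 and Gbp5 by 1.44 ± 0.57 (limma, adjusted p of 0.0194, 0.0137, 0.0282 and 0.0448). These differences include the low EMT6 replicate 1, with Igtp at 22.4 TPM against 86.4 and 105 TPM in the other EMT6 libraries. Its Gbp5 was 11.2 TPM against 52.1 and 52.6 TPM. Values of this pair without that library are not given here, so the differences may depend on it. EMT6 exceeded MC38OVA in Gbp2b by 5.24, and in Gbp2, Gbp3, Gbp4 and Gbp7 by 0.05 to 0.54 without a call, which makes 5 of 10 members called in this pair, against 22.4% of all genes. Against CMS5a, EMT6 was higher in 4 GBPs (Gbp2, Gbp2b, Gbp4 and Gbp7, by 1.80 to 2.75) and in none of the IRGs, against 18.7% of genes called.

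Few other genes of the pathway were called in EMT6. Of the 18 other GTPases, which include the further GBPs Gbp6 (0.11), Gbp8 (0.16), Gbp10 (0.67) and Gbp11 (0.39), 1 was called, Gbp9 (1.34 ± 0.38), with a list median of 0.06, and of the 12 targets 3 were, the immunoproteasome genes Psmb8 (1.94 ± 0.32) and Psmb9 (1.34 ± 0.31) and the nitric oxide synthase gene Nos2 (1.80 ± 0.36). Socs1 (0.14) and Irf1 (0.70 ± 0.27) were not called. Ifng was listed at 0 in EMT6 replicate 1 and at 2.57 and 2.38 TPM in the other libraries of EMT6. Leaving out replicate 1, in which T cell markers were 1.63 and NK markers 1.40 lower (log2) than in the other EMT6 libraries and macrophage markers 0.19 higher, made 7 members called, Iigp1 (1.45, limma, adjusted p = 0.0302) added, and leaving out replicate 2 or 3 made 4, with Gbp4 and Gbp5 lost. With the leukocyte marker level as a covariate Gbp4 (0.97) and Gbp5 (0.44) were not called in EMT6, and epithelial markers were called higher in 3 of 6 cases and fibroblast markers in 5 of 6. The part of these cell types in the result was not tested.

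Renca was low in the GTPases as a whole. Gbp2 fell by 3.13 ± 0.36 (SE, log2; limma, adjusted p = 3.19e-08), Iigp1 by 2.67 ± 0.54 (SE, log2; limma, adjusted p = 0.000138) and Irgm1 by 1.89 ± 0.35 (SE, log2; limma, adjusted p = 4.33e-05), and 9 of 10 members were called lower (background 10.5%, and 12.4% higher). Gbp2b was not called, at -0.36 ± 0.35, and the other 9 lines hold both its highest and its lowest levels. Of the 18 other GTPases 16 were called lower, with Tgtp2 at -3.08, Gm12250 at -2.94 and Gbp6 at -2.81. In the pathway, Irf1 (-1.81), Socs1 (-1.88), which feeds back on Jak kinases, and Jak2 (-1.11) were called lower and the receptor gene Ifngr1 (1.62) higher. The 12 targets went both ways, with a list median of 0.20: Cxcl10 (-3.93), Cxcl9 (-2.33), Cxcl11 (-1.68), Ido1 (-1.40) and 1 more were called lower, and 2 were called higher. Of the type I signature 8 of 12 were called lower. Leukocyte markers summed to 585 to 659 TPM and macrophage markers to 1229 to 1783 TPM in Renca, against 130 to 434 TPM of macrophage markers in B16F10, and of 7 NK markers 2 to 3 reached 1 TPM. Epithelial markers were called higher in Renca in 5 of 6 cases (median 5.66) and endothelial markers in 4 of 5 (median 1.63), and their part in the result was not tested.

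In the B16 sublines the GBPs were low and Irgm1 was not called. In B16F10 6 of 10 members were called lower, all 6 GBPs (background 23.2%, and 5.28% higher), with Gbp3 at -2.52 and Gbp5 at -2.38, whereas Irgm1 was at -0.02, Igtp at -0.42, Irgm2 at -0.70 and Iigp1 at -0.999, none of them called. Without B16F10 replicate 1, Gbp2 (-0.94, limma, adjusted p = 0.0513) and Gbp4 (-0.78, limma, adjusted p = 0.246) were no longer called. Gbp4 was also lost without B16F10 replicate 2 (-0.90, limma, adjusted p = 0.200). Without B16F10 replicate 3, 9 were called, with Igtp at -1.19, Irgm2 at -1.36 and Iigp1 at -1.71. In that library leukocyte, T cell and NK markers were 1.04, 1.29 and 1.47 higher (log2) than in the other B16F10 libraries, and their part in the result was not tested. In B16F1 9 of 10 were called lower (background 13.2%, and 8.52% higher), Gbp7 at -3.06 ± 0.38 (SE, log2; limma, adjusted p = 1.55e-07), and Irgm1 was again the member not called (-0.37 ± 0.35, and -0.81 with limma adjusted p = 0.0862 without B16F1 replicate 1). The GBP minus IRG balance was -1.79, -1.79 and -2.03 in B16F10 and -2.29, -1.54 and -1.90 in B16F1.

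Irgm1 made up 45.7% of the summed TPM of the 10 members in B16F1 and 33.9% in B16F10, against 5.70% in EMT6. Compared with Renca, where all members but Gbp2b were low, B16F1 was higher in Irgm1 by 1.37 ± 0.47 (limma, adjusted p = 0.0160), and the other member called in that pair, against 29.6% of genes, was Gbp2b, higher in Renca by 3.16. B16F10 exceeded Renca in Irgm1 by 1.69, Gbp2 by 1.62 and Igtp by 1.32, Renca exceeded B16F10 in Gbp2b by 3.03, and 34.1% of genes were called in that pair. Single libraries weigh on both pairs. Igtp was at 136 TPM in B16F10 replicate 3, against 24.7 and 28.9 TPM in the other B16F10 libraries. Irgm1 was at 121 TPM in B16F1 replicate 1, against 45.3 and 51.1 TPM in the other B16F1 libraries. Values of these pairs without those libraries are not given here. Median-ratio scaling, which moves the median of all genes by 0.33 in B16F10 against the other lines, raised the share of its calls that were higher to 40.8%, against 18.6% without it. With the leukocyte marker level as a covariate only 1 member was called in B16F10 and 2 in B16F1, and 2 of the falls in B16F10 turned round, Gbp2 to 0.42 and Gbp4 to 1.01.

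Genes of the pathway lists were called lower in both sublines. Of the 18 other GTPases 8 were called lower in B16F10, led by Gvin1 (-2.998) and Gbp9 (-2.57), and 15 in B16F1, with 0 higher in either. Of the 12 targets 8 were called lower in each subline, and of the type I signature 10 in B16F10 and 12 in B16F1. Irf1 was lower in B16F10 (-1.64) and B16F1 (-1.38), and Socs1 likewise (-2.07 and -1.85).

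CMS5a and LL2 lay between these extremes. In CMS5a Gbp2b was called higher by 2.61 ± 0.35 (SE, log2; limma, adjusted p = 6.36e-07) and Gbp7 lower at -1.08 ± 0.38 (SE, log2; limma, adjusted p = 0.0242), 2 of 10 members, with backgrounds of 9.23% higher and 4.49% lower, and the Gbp7 call was lost without replicate 3 (-0.75). CMS5a exceeded Renca in 7 of 10 members, all but Gbp7, Igtp and Irgm2, against 27.1% of genes called in that pair. In LL2 Gbp2b (-3.77, limma, adjusted p = 1.16e-09), Gbp3 (-1.02, limma, adjusted p = 0.0201) and Gbp4 (-1.32, limma, adjusted p = 0.0305) were called lower, 3 of 10 (background 6.53%, and 7.98% higher). The last 2 calls were lost without LL2 replicate 1 or replicate 3, and all members were higher in replicate 2, where the type I interferon signature was 1.53 above that of the other LL2 libraries. With the leukocyte marker level as a covariate 8 members were called lower in LL2, where these markers summed to 1282 to 1572 TPM, against 141 to 406 TPM in B16F1. Of the 18 other GTPases 0 were called in CMS5a, and 5 were called lower in LL2.

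No member was called between the related lines. MC38OVA against MC38 had 0 of 10, beside 1.31% of all genes, CT26NYESO1 against CT26 0 of 10, beside 2.27%, and B16F10 against B16F1 0 of 10, beside 20.9%. At an unadjusted p under 0.05 the counts were 1, 0 and 4. The fitted difference between MC38OVA and MC38 was above 0 for 9 of 10 members, none past the threshold, with Gbp2b at 1.57 ± 0.47 (limma, adjusted p = 0.0750) and Gbp4 at 1.23 ± 0.67 (0.544) the farthest from 0. Gbp4 had 38.6, 57.7 and 57.5 TPM in MC38OVA and 23.2, 17.1 and 23.2 TPM in MC38, which do not overlap, as was the case for 6 of 10 members (Gbp2, Gbp2b, Gbp4, Gbp5, Igtp and Iigp1) against 13% of all genes in either direction. Beside the member median of 0.53 in this pair, leukocyte markers were above 0 in 10 of 10 cases (median 1.10, 1 called), macrophage markers in 7 of 7 (median 1.17, 1 called), and erythroid markers below 0 in 5 of 5 (median -2.95, 3 called). Their part in the result was not tested. Ifng had 10.00, 8.92 and 9.37 TPM in MC38OVA and 4.48, 2.30 and 6.29 TPM in MC38, a difference of 1.03 ± 0.40 (limma, adjusted p = 0.240).

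For NY-ESO-1 the members differed by -0.05 to 0.34 between CT26NYESO1 and CT26, all with limma adjusted p of at least 0.960, and the libraries overlapped in all 10 members, while 25.6% of all genes did not overlap. The spread of CT26 limits this comparison: Gbp2 was 236 ± 54.5 TPM in CT26NYESO1 and 313 ± 228 TPM in CT26 (SD, n = 3 each). The difference between the antigen pairs was called for 0 of 10 members (2.62% of genes), with Gbp2b at 1.37 ± 0.66 (limma, adjusted p = 0.335) the only 1 at an unadjusted p under 0.05. Without CT26 replicate 2 that difference was 2.23 (limma, adjusted p = 0.00814).

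Between B16F10 and B16F1 the fitted differences of the 10 members were 0.00 to 1.57, without a call. Gbp4 was at 3.61, 4.45 and 24.2 TPM in B16F10 and 1.95, 2.66 and 1.24 TPM in B16F1, a difference of 1.57 ± 0.67 (limma, adjusted p = 0.0632), and Gbp2, Gbp7 and Igtp likewise did not overlap (4 of 10 members, against 38.7% of genes). Between the sublines erythroid markers were called higher in 5 of 5 cases (median 5.43) and melanocyte markers in 6 of 7, and macrophage markers were called lower in 5 of 7 and fibroblast markers in 5 of 6. Their part in the result was not tested. In this pair 4.53% of genes were called higher and 16.4% lower, and 5 of 12 targets were called higher and 1 lower. Median-ratio scaling, which moves the median of all genes by 0.21 here, made 5 members called (Gbp2, Gbp4, Gbp7, Igtp and Irgm2, by 1.27 to 1.92) and raised the share of calls that were higher to 41.4%, against 21.7% without it. Leaving out B16F10 replicate 1 made 3 members called (Gbp2, Gbp4 and Igtp), B16F10 replicate 2 made 1 (Igtp) and B16F1 replicate 2 made 1 (Gbp7). The leukocyte marker level as a covariate made 4 called (Gbp2, Gbp4, Gbp7 and Igtp), and a pseudocount of 0.1 made 3 (Gbp2, Gbp4 and Gbp7).

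**Figure D4:**
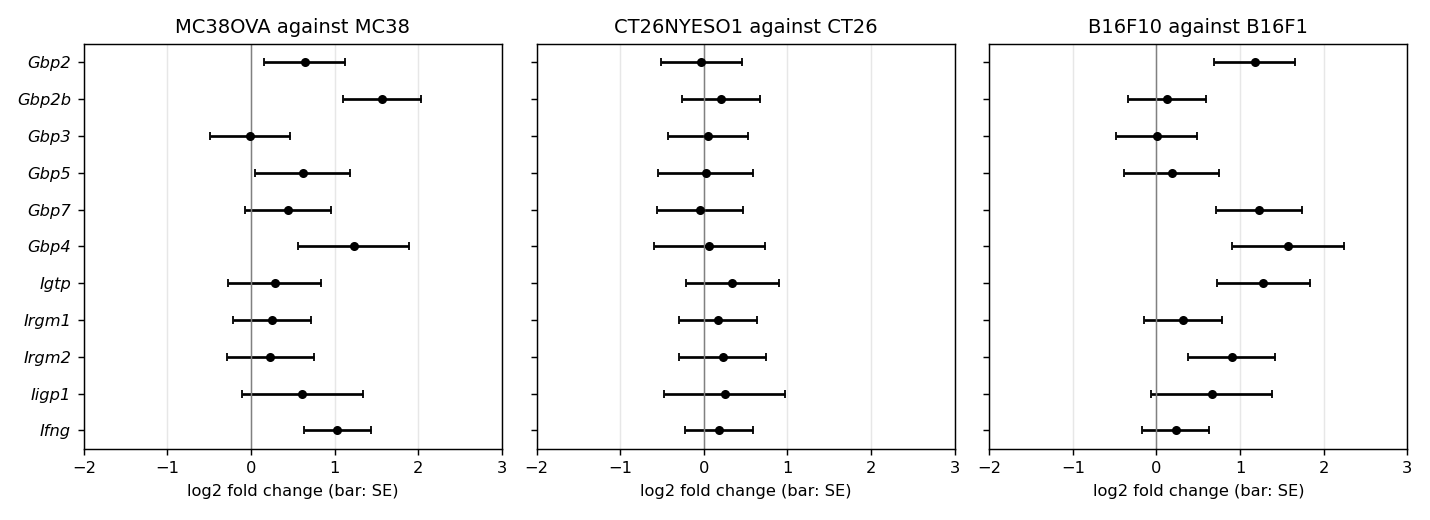
Differences on the log2(TPM + 1) scale of the 10 members and Ifng in MC38OVA against MC38, CT26NYESO1 against CT26 and B16F10 against B16F1, with bars giving the SE of the fit. Most points of the MC38 and B16 pairs lie above 0, those of the CT26 pair are at -0.05 to 0.34 for the members, and none was called.

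Ifng was set beside the IRGs and the GBPs. Over the 30 libraries the mean log2 level of the 4 IRGs correlated with that of Ifng at r = 0.86 (rho = 0.87). That of the 6 GBPs, with Gbp2b among them, did so at r = 0.68 (rho = 0.72), and Gbp2b alone at r = 0.19. Over the 10 line means the values were 0.90, 0.67 and 0.15. Within lines, after taking out each line's mean, they were 0.74, 0.79 and 0.74. The GBP mean includes Gbp2b here, and no value without it is given. The order of IRGs and GBPs seen over all libraries was thus turned round within lines, and the difference between them was not tested. These are descriptions: the 3 libraries of a group share a tumour line, all values share the TPM scale of their library, and Ifng was under 1 TPM in 16 of 30 libraries and at 0 in 2.

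**Figure D5:**
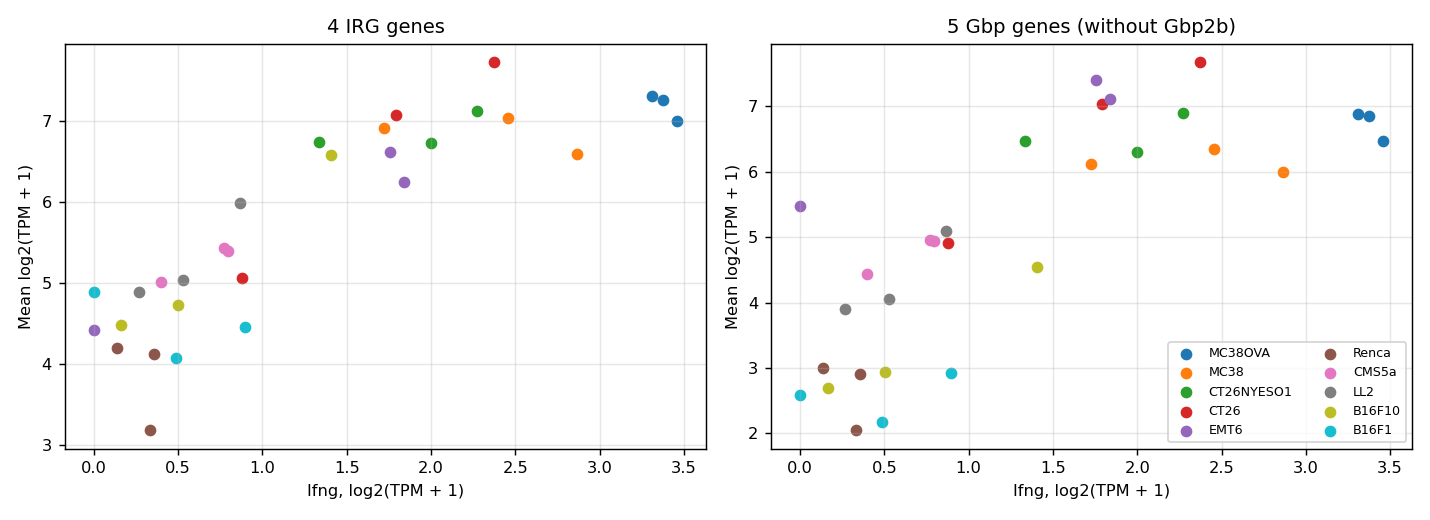
Ifng (x axis, log2(TPM + 1)) against the mean log2(TPM + 1) of the 4 IRGs (left) and of the 5 GBPs without Gbp2b (right), 1 point per library, coloured by line. Over all libraries r is 0.86 for the IRGs. It is 0.68 for the mean of the 6 GBPs with Gbp2b, which is not the mean plotted on the right. EMT6 replicates 2 and 3, at 2.57 and 2.38 TPM of Ifng, have plotted GBP means of 7.12 and 7.41, close to 7.04 in CT26 replicate 1 at 2.46 TPM.

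Signalling genes and inducers were counted in each line. Of 10 signalling genes, from Ifng and its receptor to Irf8 and Batf2, 6 were called higher in MC38OVA, 4 in MC38, 3 in CT26NYESO1, 1 in CT26 and 0 in EMT6, with 0 lower in these lines. In Renca 6 were called lower and 1 higher, in CMS5a 1 lower, in LL2 1 lower and 1 higher, in B16F10 5 lower and in B16F1 7 lower. Of 7 tested genes that induce Ifng or act in the cells that make it, such as Il15, Il27 and Eomes, 6 were called higher in MC38OVA, 4 in MC38 and 2 in EMT6, and 3 lower in Renca and in B16F10. In CT26NYESO1 and in CT26 1 was called higher and 1 lower, in B16F1 1 higher and 2 lower, and in CMS5a and LL2 0 either way.

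Other measures went with the members too. Their mean log2 level over the 30 libraries correlated with NK markers at r = 0.83, with Ifng at 0.77, with T cell markers at 0.70, with leukocyte markers at 0.61 and with macrophage markers at 0.39. Without the 6 libraries of the B16 lines the value for leukocyte markers was 0.30. Genes of other interferons were scarcely detected, with Ifnb1 at no more than 0.876 TPM and Ifnl3 at 0 in all 30 libraries.

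Of 14564 named genes ranked by r with the mean of the 10 members, the 12 most alike were Gbp10 (0.96), Gbp9 (0.95), Irf1 (0.92), Gbp8 (0.91), Ifi47 (0.91), Il15 (0.90), Gbp6 (0.90), Trim21 (0.89), Vcam1 (0.89), Erap1 (0.89), Tigit (0.89) and Klri1 (0.88). Socs1 ranked 53, Ifng 260, Cxcl9 357 and Isg15 1266. By member, the gene with the most similar pattern over the 30 libraries was Gbp9 for Gbp2 (0.93) and for Gbp3 (0.97), Gbp10 for Gbp4 (0.98), Irf1 for Gbp5 (0.98), Tnfaip3 for Gbp7 (0.94) and Trim34b for Gbp2b (0.95). For the IRGs it was Gbp6 for Igtp (0.98), Irgm2 (0.97) and Iigp1 (0.96) and Tgtp2 for Irgm1 (0.95). Gbp8, Gbp9 and Gbp4 overlap on 1 strand, and reads of these paralogs may be shared.

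Among themselves the members moved together. The 36 pairs without Gbp2b correlated at r of 0.64 to 0.98 (median 0.89) over the 30 libraries, and the 9 pairs with Gbp2b at 0.13, with Irgm1, to 0.69 (median 0.45). Within lines the pairs with Gbp2b reached 0.79 to 0.86 and the others 0.86 to 0.98. In 21 of 30 libraries all 10 members lay on the same side of the mean of the other libraries of their line, and in 7 of these 21 the median difference was over 1 on the log2 scale.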

How the data were processed

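The members and the gene lists were chosen with earlier results of these data known. The authors deposited TPM values; per the submitters' processing notes, the tools were Trim Galore 0.6.5, STAR 2.7.3a and StringTie 2.1.2 on mm10, and the annotation and use of strand are not given in the sources used here. TPM keep no read counts, so the depth per library is unknown and no counting error can be given. The 17944 genes that reached 1 TPM in 3 or more libraries were tested as log2(TPM + 1) with limma 3.58.1 (R 4.3.3, variance trend), with 1 mean per line and 20 residual degrees of freedom. The contrasts set each line against the other 9 averaged, and also covered the 45 pairs of lines, 3 related pairs, the difference between the antigen pairs and an F test. P-values were adjusted by Benjamini-Hochberg over all genes within each comparison, and calls need an adjusted p under 0.05 and a log2 difference of at least 1. Whether replicates are separate mice is not labelled, and p-values then measure only the spread between these samples, which may be technical.

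Tested on simulated data with 200 genes changed by 1.5 (log2) among 17944, the fit recovered 96.5% when MC38OVA was set against the other 9 lines, and 87% against MC38. The changed genes were drawn at random among all but low-level genes, with no other difference between lines. In MC38OVA against MC38 the SE of the members was 0.47 to 0.72, and Gbp2b at 1.57 was not called (limma, adjusted p = 0.0750). These percentages therefore do not give the recovery of the members. Results were recomputed with median-ratio scaling, without the filter, with a pseudocount of 0.1, without the fold threshold, with a replicate block, the leukocyte marker level as a covariate, the B16 lines left out of the others, the others averaged as 7 families, each related pair fitted on its own 6 libraries, and leaving out each library or replicate number. The members and Ifng are named in every comparison, list genes by counts with at most the 5 of largest change, Irf1 and Socs1 throughout, and the 12 genes most like the members by Pearson r, predicted genes left out. The lists held 19 other interferon-induced GTPases (18 tested), 10 signalling genes, 12 targets, 12 type I signature genes, 8 inducers (7 tested) and 5 interferon genes. Strain of origin of each line is background knowledge. Motifs were searched in RefSeq windows (GRCm38.p6), and no sequence is shown for Gbp4 and Iigp1. Python 3.11.15, numpy 2.4.6, pandas 2.3.3, scipy 1.17.1 and matplotlib 3.10.9 were used. Another gene that the rule names is not reported here.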

Additional observations from a re-analysis of the deposited data

How the results depend on the processing

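The counts of called members against the other lines stayed within 1.5 times of those reported except under these settings. With the leukocyte marker level as a covariate they were 1 in MC38OVA, 5 in MC38, 8 in LL2, 1 in B16F10, 2 in B16F1 and 4 between B16F10 and B16F1, and 3 called differences changed sign (Gbp4 in MC38OVA to -0.28, Gbp2 and Gbp4 in B16F10 to 0.42 and 1.01). Median-ratio scaling gave 5 in MC38 and 5 between B16F10 and B16F1, a pseudocount of 0.1 gave 3 between B16F10 and B16F1, and no filter gave 1 in CMS5a and 1 in LL2. Without the B16 lines among the others the counts were 5 in CT26NYESO1, 3 in CT26 and 5 in LL2, and with related lines averaged 1 in LL2; the cause was not tested. Leaving out 1 library or replicate number gave 8 to 10 in MC38OVA, 3 to 8 in MC38, 5 to 8 in CT26NYESO1, 3 to 10 in CT26, 4 to 7 in EMT6, 9 to 9 in Renca, 1 to 2 in CMS5a, 1 to 4 in LL2, 4 to 9 in B16F10, 8 to 9 in B16F1, 0 to 0 in MC38OVA against MC38 and in CT26NYESO1 against CT26, 0 to 3 in B16F10 against B16F1, 0 to 1 for the difference between the antigen pairs, 10 to 10 in the F test and 209 to 300 over the line pairs. Replicate numbers were not used to pair the libraries. Same-numbered libraries of related lines deviated together at r of -0.12 to 0.42, over 0.1 in 4 of 9 cases, and 4 of 9 matched their own number best. So few values cannot show whether same-numbered libraries share a batch. A replicate block left the counts at 10, 8, 9, 8, 6, 9, 2, 3, 6 and 9 for the lines, 0 in each pair and for the difference, 10 in the F test and 254 over the line pairs. Over all settings, 2741 values of single genes kept direction and side of the threshold, 169 were lost as calls, 69 gained and 3 changed sign. Unknown depth limits Ifng and low Gbp2b values, where a few reads may set the level.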
